A study of Mus musculus with 42 samples.

Results

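The responses of mouse odorant receptors (ORs) to undiluted acetophenone (ACT) and to undiluted trimethylthiazoline (TMT), a component of fox odor, were set against each other OR by OR. The members are all 1088 intact OR genes of the deposited tables, of 1088 in the series, and the measure is the log2 fold change of ACT over no odor minus that of TMT over no odor. The comparison uses 12 of the 42 libraries of the series. They are 3 mice given 100% ACT, 3 no odor mice of the ACT experiment, 3 mice given 100% TMT and 3 no odor mice of the TMT experiment. All were C57BL/6 mice of 20 to 22 days of age with no transgene or deletion, and the odor groups differ from their no odor groups only by the odorant in the cassette during 1 h of exposure. Mice of a replicate number were littermates of the same sex, so each odor library is read against its own no odor littermate. ACT and TMT each had their own no odor mice and are called separate experiments here, although the titles of these 12 libraries do not divide by odorant. No litter is given as common to both, so the odorants are not compared within a litter.

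ORs are the largest family of G protein-coupled receptors in mammals, and each mature olfactory sensory neuron (OSN) expresses a single OR gene. When an odorant activates an OSN, ribosomal protein S6 in it becomes phosphorylated. In pS6-IP-Seq an antibody against phosphorylated S6 pulls down ribosomes with their mRNA from the olfactory epithelium, so that the mRNA of the ORs of active OSNs is enriched. A given odorant activates several ORs and a given OR can respond to several odorants, and the comparison asks which ORs responded more to one odorant and which to both. In such bulk libraries, more active cells of a type and more bound RNA per cell cannot be told apart. The tables hold intact ORs only, so markers of OSNs, of other cell types and of activity were not analysed here.

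The 12 libraries held 37012 to 66929 counts on ORs and detected between 985 and 1040 of them. Counts were compared by edgeR's quasi-likelihood test in a single fit that held the litter constant, with libraries scaled by TMM and p-values adjusted by Benjamini-Hochberg over all 1088 ORs. The biological coefficient of variation was 0.306. Normalized counts are expressed per mean library after this scaling, and the litter ratio is log2 of (odor + 1) over (no odor + 1) of these. The litters exposed to ACT stood apart from each other. Over the 10 ORs that 0.1% ACT raised in other mice of the series, the median litter ratio was -0.21, 0.19 and 2.45 in ACT litters 1, 2 and 3. Over the 9 ORs that 0.1% TMT raised in other mice, it was 1.38, 0.59 and 0.78 in the same ACT litters, against 1.98, 2.38 and 2.05 in TMT litters 1, 2 and 3. ACT litter 1 was thus the lowest litter for ACT in the first list and the highest for ACT in the second, and ACT litter 3 was far above the others in the first. Main results are given with and without these litters. The library titles carry the letter A in ACT litter 1 and in TMT litters 1 and 2. They carry the letter B in ACT litters 2 and 3 and in TMT litter 3. ACT litter 1 thus differs from the other ACT litters in this letter. What the letters stand for is not stated, and their part in these values was not tested.

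Tested directly, no OR differed between the undiluted odorants at an adjusted p below 0.05, whether larger with ACT (0 ORs, 0% of 1088) or larger with TMT (0 ORs, 0%). The smallest adjusted p of edgeR's quasi-likelihood test was 0.0598 (n = 3 litters per odorant). Before adjustment, 54 ORs (4.96%) had the larger response to ACT and 61 (5.61%) the larger response to TMT at p below 0.05. With size factors over all genes in place of TMM, which moved the median difference of all ORs to 0.39 log2, these counts were 118 and 19, and with total OR counts, which moved it to 0.09, they were 76 and 40. The likelihood ratio test of edgeR called 6 and 9 ORs in these directions, and DESeq2 called 3 and 3. Without ACT litter 1, the quasi-likelihood test called 45 ORs larger with ACT (4.14%) and 35 larger with TMT (3.22%). Of these 80, 68 were among the 115 with p below 0.05 in all 12 libraries. That fit reuses the remaining libraries, and ACT litter 1 was picked out by its own values. Neither the calls nor the overlap is thus independent support. Of the other litters, ACT litter 2 left out gave 2 and 0 calls, ACT litter 3 left out gave 0 and 3, and each TMT litter left out gave 0 and 0. In simulated counts of the same 12 libraries, the test recovered 82% of ORs with a 4-fold larger and 56% with a 4-fold smaller response. It recovered 16% and 8% of those with 2-fold differences, so most 2-fold differences would be missed by this test with these 12 libraries. The changed ORs, 50 per fold, had a mean of at least 20 counts, and no litter difference or TMT response was simulated. The simulation gave 89 calls, against 0 in the data, so these shares can be too high for the data.

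The responses that make up the difference were unequal in number. ACT raised 34 ORs (3.12%) and lowered 1 (0.0919%), and TMT raised 104 (9.56%) and lowered 7 (0.643%) at an adjusted p below 0.05. By these calls 23 ORs (2.11%) were raised by both, 11 (1.01%) by ACT with no call for TMT, and 81 (7.44%) by TMT with no call for ACT. Before adjustment, ACT had 137 ORs higher (12.6%) and 44 lower (4.04%), and TMT had 154 higher (14.2%) and 57 lower (5.24%). A call for one odorant alone does not show that the responses differ, and none of these ORs passed the test of the difference. Without ACT litter 1, ACT raised 87 ORs and TMT 116, of which 27 were raised by both, 60 by ACT with no call for TMT and 89 by TMT with no call for ACT. The number raised by ACT was 18 without ACT litter 3, 22 without TMT litter 1 and 20 without TMT litter 2, which enter the common estimate of spread. The number raised by TMT was 46 without TMT litter 2 and 63 without TMT litter 3, and 13 ORs were raised by both without TMT litter 2. Without the litter block, the number raised by ACT was 58, and with the ACT experiment fitted alone no OR was called (smallest adjusted p = 0.0608), while TMT fitted alone raised 127. The paper, which also used edgeR at an adjusted p below 0.05, reports the reverse order for the undiluted odorants. It found more ORs enriched by ACT than by TMT. The reason for this reversal was not tested.

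**Figure D1:**
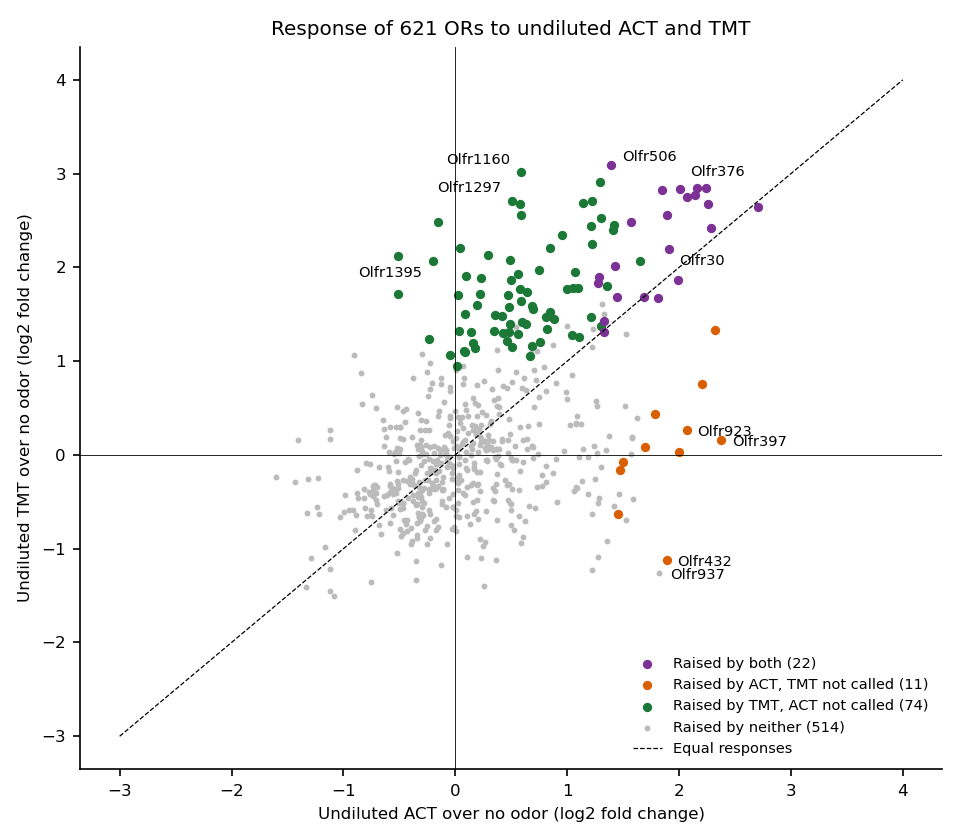
Each point is an OR with a mean of at least 20 normalized counts over the 12 libraries (621 ORs), with the log2 fold change of undiluted ACT over no odor on the x axis and that of undiluted TMT over no odor on the y axis. Colors give the calls at an adjusted p below 0.05, the dashed line marks equal responses, and 22 ORs raised by both lie to the upper right, while Olfr397, Olfr923 and Olfr432 lie near or below 0 for TMT.

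The ORs with the larger response to ACT were led by Olfr397 on chromosome 11 (GRCm38, 73960817 to 73967812). It had 221, 227 and 756 normalized counts in the ACT mice, against 64.0, 59.9 and 71.6 in their no odor littermates. In the TMT experiment it had 123, 130 and 134 counts in TMT mice, against 106, 147 and 97.6 in no odor mice. All ACT mice were above all no odor mice of their experiment, and the TMT groups overlapped. The response of Olfr397 to ACT was 2.38 ± 0.34 and that to TMT 0.16 ± 0.34 (log2 fold change ± SE), a difference of 2.22 ± 0.48 with a 95% interval of 1.22 to 3.21 (adjusted p = 0.0598, edgeR). Its adjusted p was 0.0498 without TMM scaling, 0.0405 with size factors over all genes, 0.00356 by the likelihood ratio test, 0.00156 by DESeq2 and 6.13e-05 without ACT litter 1 and 0.0409 without ACT litter 2, and lay between 0.0531 and 0.333 under the other alternatives.

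Olfr923, the OR that the study took up as a sensitive ACT receptor, lies on chromosome 9 (38826545 to 38830300). It had 89.0, 149 and 642 normalized counts in ACT mice, against 39.4, 49.9 and 63.8 in no odor mice. In TMT mice it had 97.8, 80.4 and 113 counts, against 52.4, 73.0 and 130 in no odor mice. Olfr923 was highest in the ACT mouse of litter 3, and each ACT mouse was above every no odor mouse of its experiment, while the TMT groups overlapped. It rose by 2.07 ± 0.41 log2 with ACT (adjusted p = 0.00245) and had 0.27 ± 0.40 with TMT, a difference of 1.80 ± 0.57 (95% interval 0.61 to 2.98, adjusted p = 0.147). Without ACT litter 1 the difference was 2.20 ± 0.49 (adjusted p = 6.26e-04), and without ACT litter 3 it was 1.12 (adjusted p = 0.6).

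On chromosome 1, the nearby Olfr432 (174049205 to 174054752) and Olfr430 (174066605 to 174072273) were also among the 10 ORs with the smallest p on the ACT side. Olfr432 had 12.2, 39.9 and 98.2 normalized counts in ACT mice, against 11.1, 6.66 and 17.4 in no odor mice. TMT mice had 18.7, 12.9 and 7.41 counts of Olfr432, against 34.4, 22.1 and 25.9 in no odor mice. The ACT mouse of litter 1 was level with its littermate, the other ACT mice were above theirs, and every TMT mouse was below its littermate. The ACT response of Olfr432 was 1.89 ± 0.49 (adjusted p = 0.0317) and its TMT value -1.12 ± 0.49 (adjusted p = 0.18), a difference of 3.004 ± 0.69 (adjusted p = 0.0614). Olfr430 had a difference of 1.53 ± 0.48 (adjusted p = 0.213), made of 0.59 for ACT and -0.94 for TMT, neither of which passed.

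Olfr937, on chromosome 9 (39058851 to 39064951), had the largest difference of the 10, at 3.09 ± 0.88 (adjusted p = 0.0805). It had 21.1, 47.0 and 231 normalized counts in ACT mice, against 14.8, 24.97 and 16.4 in no odor mice. TMT mice had 6.59, 10.7 and 11.1 counts of Olfr937, against 31.3, 13.3 and 25.9 in no odor mice. The mouse of ACT litter 3 was the highest of all 12, and Olfr937 did not pass in either response by itself. Olfr884 in the same cluster had 28.9, 214 and 528 counts in ACT mice, against 30.8, 50.8 and 47.4 in no odor mice, and 33.0, 40.7 and 29.6 in TMT mice, against 34.4, 43.2 and 24.7 in no odor mice. Olfr884 rose by 2.003 ± 0.51 with ACT (adjusted p = 0.0128) with a TMT value of 0.03, but the litters overlapped because ACT litter 1 had a ratio of -0.09.

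The other 4 ORs named on this side were Olfr1037, Olfr1036, Olfr1328 and Olfr748. Olfr1037 and Olfr1036 lie next to each other on chromosome 2, and 21.3% and 15.5% of their 50-base stretches also occur in related ORs or OR pseudogenes, as do 13.3% of those of Olfr432 and 10.9% of those of Olfr748, so some of their reads are uncertain. Olfr1328 rose with ACT by 1.46 ± 0.45 (adjusted p = 0.0487) and had 48.9, 186 and 316 normalized counts in ACT mice, against 51.7, 68.2 and 44.5 in no odor mice. Over the 10 ORs the difference ran from 1.53 to 3.09 with adjusted p from 0.0598 to 0.234, so none passed. They were chosen by the p of this same difference, which largely fixes the order of their litters, and every ACT litter ratio was above every TMT litter ratio in 9 of 10. Among all 621 ORs with a mean of at least 20 counts, 45 had that order (7.25%) and 60 the reverse (9.66%). Olfr432, Olfr937 and Olfr1036 reached a mean of 20 counts only through the ACT mice. All 10 passed without ACT litter 1, with adjusted p from 1.26e-05 to 0.00714. That litter was picked out by its own values, and the 10 ORs by this difference, so these p-values are no independent support. Without ACT litter 3, 0 ORs were called larger with ACT. With any litter left out, the difference of the 10 ran from 1.01 to 3.64. In 9 of the 10 the no odor mice of the ACT experiment were lower than those of the TMT experiment, by up to 1.24 log2 in Olfr432, and these mice enter the difference. Between the ACT and TMT mice alone, without the no odor mice, the 10 ORs were higher with ACT by 0.58 to 3.40 log2. These mice also enter the difference by which the 10 were chosen, so this direction is no independent support.

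The ORs with the larger response to TMT were led by Olfr1395 on chromosome 11 (49142274 to 49150453). It had 296, 132 and 126 normalized counts in ACT mice, against 181, 166 and 247 in no odor mice. In the TMT experiment it had 602, 1217 and 819 counts in TMT mice, against 142, 227 and 250 in no odor mice. Each TMT mouse was above all of its experiment's no odor mice, while the ACT mouse was above its littermate in litter 1 only. Olfr1395 had -0.20 ± 0.34 with ACT and rose by 2.07 ± 0.33 with TMT (adjusted p = 1.87e-04), a difference of -2.27 ± 0.48 with a 95% interval of -3.26 to -1.29 (adjusted p = 0.0598). Without ACT litter 1 the difference was -2.73 ± 0.51 (adjusted p = 3.11e-05), and it ran from -2.45 to -1.88 without each of the other litters.

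Olfr1297, on chromosome 2 (111615233 to 111626497), had 137, 44.0 and 45.4 normalized counts in ACT mice, against 43.1, 58.3 and 37.7 in no odor mice. In TMT mice it had 210, 270 and 279 counts, against 37.5, 40.9 and 35.8 in no odor mice. The mouse of ACT litter 1 was again the only ACT mouse clearly above its littermate, with a litter ratio of 1.64, against -0.40 and 0.26 in litters 2 and 3. The difference of Olfr1297 was -2.20 ± 0.51 (adjusted p = 0.0614), made of 0.51 for ACT and a rise of 2.71 ± 0.36 for TMT (adjusted p = 2.02e-05). Olfr1302 in the same cluster had 28.9, 16.4 and 10.2 counts in ACT mice, against 12.3, 22.5 and 23.2 in no odor mice, and 40.7, 62.2 and 73.1 in TMT mice, against 5.47, 14.4 and 12.4 in no odor mice. Its difference was -2.64 ± 0.66 (adjusted p = 0.0805).

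Olfr506, on chromosome 7 (108610787 to 108615340), was raised by both odorants and still lay on the TMT side. It had 188, 106 and 107 normalized counts in ACT mice, against 39.4, 71.6 and 39.7 in no odor mice. In TMT mice it had 218, 294 and 359 counts, against 39.9, 32.1 and 27.2 in no odor mice. Every odor mouse was above every no odor mouse of its experiment. Olfr506 rose by 1.40 ± 0.36 with ACT (adjusted p = 0.0239) and by 3.09 ± 0.36 with TMT (adjusted p = 1.9e-05), a difference of -1.70 ± 0.51 (95% interval -2.76 to -0.64, adjusted p = 0.147).

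The remaining ORs named on the TMT side were Olfr177 and Olfr173 on chromosome 16, Olfr1160 and Olfr1048 on chromosome 2, Olfr463 on chromosome 11 and Olfr532 on chromosome 7. Of these, Olfr463 and Olfr173 share 16.4% and 10.7% of their 50-base stretches with related ORs. All 10 rose with TMT, by 1.71 to 3.09 log2, and Olfr506 alone of them was called with ACT. The difference ran from -2.64 to -1.65 with adjusted p from 0.0598 to 0.147, so none passed. The choice by p of this difference again largely fixes the order of the litters, which were apart in 10 of 10, and Olfr1302, Olfr1160, Olfr1048 and Olfr173 reached a mean of 20 counts only through the TMT mice. In ACT litter 1 the ratio was above 0 in 9 of the 10, the exception being Olfr1048 at -0.06. All 10 passed without ACT litter 1, with adjusted p from 1.26e-05 to 0.013. These p-values are again no independent support, since that litter was picked out by its own values. Without ACT litter 3, only Olfr1297 and Olfr177 of the 10 were called. With any litter left out, the difference of the 10 ran from -3.46 to -1.27. In 9 of the 10 the no odor mice of the ACT experiment were higher than those of the TMT experiment, by up to 1.22 log2 in Olfr1160. Between the ACT and TMT mice alone the 10 ORs were lower with ACT, from -2.19 to -1.06 log2. That direction is again largely fixed by the choice of the 10, which used the same mice.

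**Figure D2:**
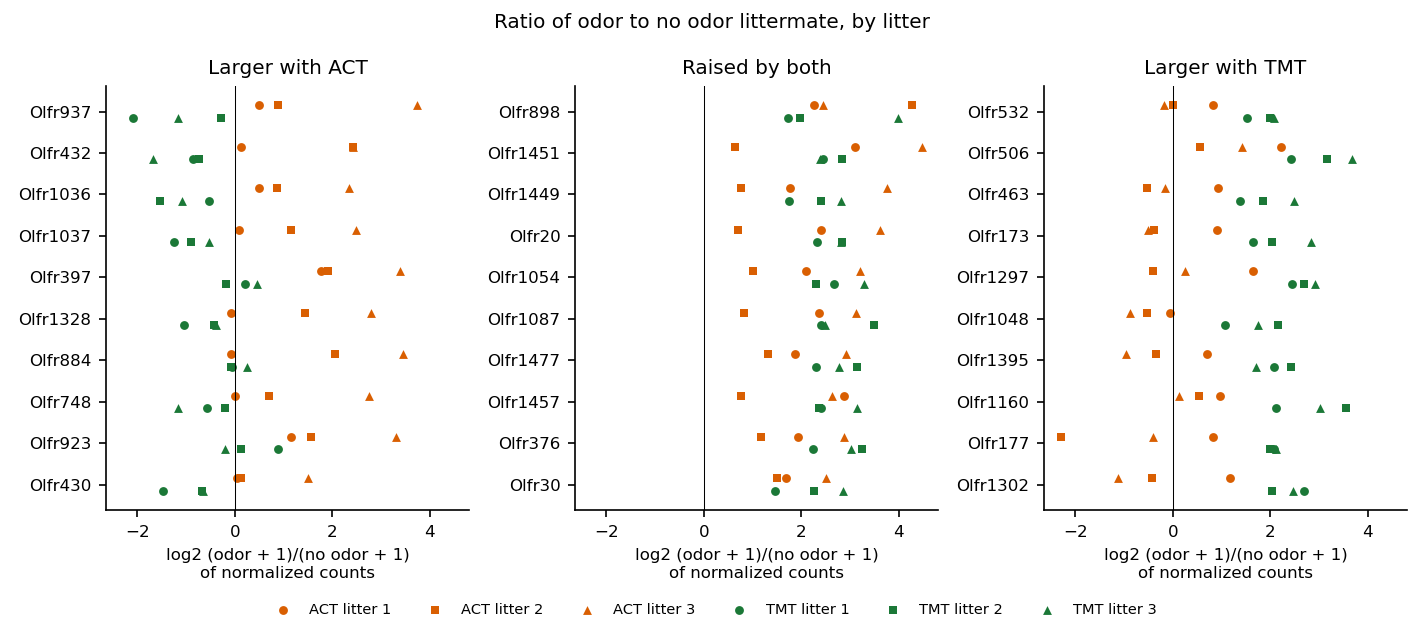
Litter ratios, log2 of (odor + 1) over (no odor + 1) of normalized counts, for the 10 ORs named on each side and the 10 shared ORs with the largest smaller response, with ACT litters in orange, TMT litters in green and the shape giving the litter. On the ACT side litter 3 is the highest ACT litter or level with it in every OR, and on the TMT side ACT litter 1 lies closest to the TMT litters in every OR.

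**Figure D3:**
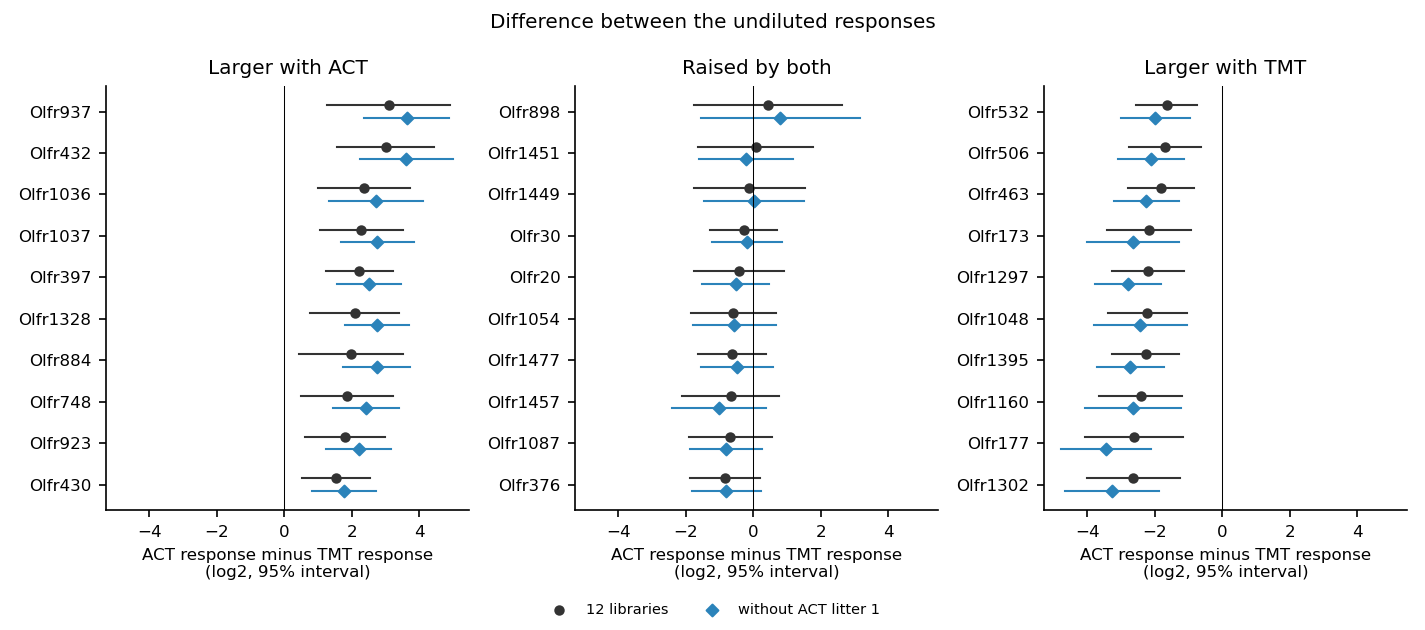
ACT response minus TMT response in log2 for the same 30 ORs, with 95% intervals, from all 12 libraries (black circles) and without ACT litter 1 (blue diamonds). All 20 ORs of the outer panels lie farther from 0 without that litter, while the intervals of all 10 shared ORs hold 0 in both fits.

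Both odorants raised 23 ORs. The most abundant was Olfr30 on chromosome 11 (58454105 to 58462270), with 665, 465 and 1068 normalized counts in ACT mice, against 204, 164 and 186 in no odor mice. TMT mice had 915, 1262 and 1350 counts, against 330, 262 and 184 in no odor mice. Every odor mouse was above every no odor mouse of its experiment. Olfr30 rose by 1.91 ± 0.34 with ACT and by 2.20 ± 0.34 with TMT, a difference of -0.29 ± 0.48 whose 95% interval runs from -1.28 to 0.70 (adjusted p = 0.964). The interval of Olfr30 thus holds differences of up to 1.28 log2 toward TMT.

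Olfr376 and Olfr20 lie next to each other on chromosome 11 and share sequence, with 7.63% and 13.8% of their 50-base stretches also found in related ORs, for each most often in the other. Olfr376 had 396, 227 and 740 normalized counts in ACT mice, against 103, 99.9 and 99.6 in no odor mice, and 564, 1013 and 785 counts in TMT mice, against 118, 106 and 96.4 in no odor mice. All odor mice were above all no odor mice. Olfr376 rose by 2.01 ± 0.36 with ACT and 2.84 ± 0.35 with TMT, a difference of -0.83 ± 0.50 (95% interval -1.87 to 0.21, adjusted p = 0.608). Olfr20 had a difference of -0.42 ± 0.64.

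Olfr531 on chromosome 7 had 592, 425 and 402 normalized counts in ACT mice, against 140, 157 and 173 in no odor mice. In TMT mice it had 947, 1215 and 1092 counts, against 170, 251 and 166 in no odor mice. It rose by 1.57 ± 0.28 with ACT (adjusted p = 0.00447) and by 2.49 ± 0.28 with TMT, and all 3 TMT litter ratios were above the ACT ratios. Its difference of -0.92 ± 0.40 had a 95% interval of -1.75 to -0.09 and an adjusted p of 0.443.

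The 23 shared ORs are 2.11% of all 1088 ORs. Of them, 5 lie in a cluster of 217 ORs on chromosome 2 (85330779 to 90292841), a share near that of all ORs. They are Olfr32, Olfr1054, Olfr1065, Olfr1079 and Olfr1087. A further 5 lie in a cluster of 60 ORs on chromosome 19 (11826803 to 13921866), namely Olfr1449, Olfr1451, Olfr1457, Olfr1474 and Olfr1477. Olfr1451 had 50.1, 17.4 and 63.9 normalized counts in ACT mice, against 4.93, 10.8 and 1.93 in no odor mice, and 47.2, 93.3 and 94.4 in TMT mice, against 7.82, 12.2 and 17.3 in no odor mice. Its rise of 2.71 ± 0.61 with ACT and 2.64 ± 0.55 with TMT left a difference of 0.06 ± 0.82. Across the 23 shared ORs the difference ran from -1.70 (Olfr506) to 0.44 (Olfr898), was below 0 in 17, and had an interval that held 0 in 21. The half-width of these intervals had a median of 1.07 log2, so equal responses were not shown for any of them. Olfr506 was the only one called in the difference without ACT litter 1.

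Several ORs with known ligands were measured. ACT is a known ligand of Olfr160 (M72), of its close relative Olfr151 (M71) and of Olfr145. Olfr145 had 62.3, 123 and 207 normalized counts in ACT mice, against 60.3, 72.4 and 29.02 in no odor mice, and 52.7, 45.0 and 50.9 counts in TMT mice, against 83.7, 47.6 and 71.7 in no odor mice. Every ACT mouse was above its littermate, by little in litter 1, and every TMT mouse was below it, an order seen in 15 of 621 ORs (2.42%) with a mean of at least 20 counts. The difference of Olfr145 was 1.61 ± 0.63 (95% interval 0.30 to 2.91, adjusted p = 0.266), and 2.16 ± 0.49 without ACT litter 1 (adjusted p = 9.23e-04). Its ACT litter ratios were 0.05, 0.75 and 2.79, so litter 3 was by far the highest. Without ACT litter 3, 0 of the 3 known ACT receptors had the larger ACT response at an unadjusted p below 0.05, against 1 in all 12 libraries. Olfr160 had 30.0, 35.8 and 124 counts in ACT mice, against 14.8, 22.5 and 18.4 in no odor mice, and 17.6, 32.2 and 24.99 counts in TMT mice, against 14.9, 19.9 and 16.1 in no odor mice. Its ACT response was 1.51 ± 0.43 (adjusted p = 0.0556) and its difference 0.99 ± 0.63 (adjusted p = 0.651). Olfr151 had 0 counts in all 6 libraries of the ACT experiment, and 2, 3 and 0 counts in TMT mice, against 1, 0 and 0 in no odor mice, so its response could not be measured, and 32.9% of its 50-base stretches also occur in related ORs, mostly in Olfr160. The paper's methods also report a misannotated Olfr151 that was corrected to Olfr160 in the OR annotation. Counts under these names may thus not separate M71 from M72.

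Olfr1019, a known TMT receptor, had 36.7, 41.9 and 41.7 normalized counts in ACT mice, against 34.5, 33.3 and 36.8 in no odor mice. TMT mice had 47.2, 56.8 and 59.2 counts of Olfr1019, against 36.8, 40.9 and 34.6 in no odor mice. All TMT mice were above their no odor group, yet the TMT response of 0.53 ± 0.30 (adjusted p = 0.436) and the difference of -0.33 ± 0.43 (95% interval -1.21 to 0.55, adjusted p = 0.946) did not pass. Of 11 ORs known for other ligands or as genetic models, among them Olfr16 (MOR23), Olfr17 (P2), Olfr73 (mOR-EG), Olfr1507 (MOR28) and Olfr78, 0 passed in either response or in the difference, and 0 had p below 0.05 in the difference before adjustment. Over all ORs, 3.12% were raised by ACT and 9.56% by TMT, so 0 of 11 is close to these shares. Olfr15 and Olfr124 of the 11 were also activated by ACT in heterologous cells. Olfr15 had 0.71 ± 0.31 with ACT (unadjusted p = 0.0378, edgeR's quasi-likelihood test, adjusted p = 0.245).

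Other ORs that the study names were followed as well. Olfr983 had 41.2, 41.9 and 147 normalized counts in undiluted ACT mice, against 66.5, 82.4 and 77.4 in no odor mice, and 53.8, 50.4 and 67.6 counts in TMT mice, against 72.7, 35.4 and 98.9 in no odor mice. Its difference was -0.02 ± 0.55 (95% interval -1.16 to 1.11). Olfr901 had a difference of 0.38 ± 0.52 and Olfr1427 one of -0.92 ± 0.44 (adjusted p = 0.476). Olfr165 rose with TMT by 2.08 ± 0.50 (adjusted p = 0.00415) and differed by -1.59 ± 0.71 (adjusted p = 0.412), with litter ratios of 1.89, 0.18 and -0.76 in the ACT litters. Olfr898 was raised by both at low levels, with 33.4, 18.4 and 36.1 normalized counts in ACT mice, against 6.16, 0 and 5.80 in no odor mice, and 15.4, 16.1 and 14.8 in TMT mice, against 3.91, 3.32 and 0 in no odor mice. Olfr907 and Olfr837 had few reads, with a no odor group at or near 0 in 1 experiment, so no fold is given for them. Olfr907 had 7, 2 and 7 counts in ACT mice, against 0, 0 and 0 in no odor mice, and 2, 15 and 5 in TMT mice, against 2, 4 and 0 in no odor mice. Olfr837 had 10, 4 and 15 counts in ACT mice, against 2, 5 and 3 in no odor mice, and 8, 14 and 8 in TMT mice, against 1, 0 and 0 in no odor mice. Olfr837 was called higher with TMT (adjusted p = 0.0102), and its difference was not called (adjusted p = 0.472).

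The zones of the epithelium, in which ORs are expressed in a fixed dorsal to ventral order, held different shares of the ORs on each side. The dorsal and ventral libraries of the series, 3 of each, called 407 ORs dorsal (37.4% of 1087) and 400 ventral (36.8%). Of the 54 ORs with the larger ACT response at an unadjusted p below 0.05, 38 were dorsal and 8 ventral, and of the 61 with the larger TMT response 9 were dorsal and 33 ventral. The median difference was 0.13 log2 over dorsal ORs and -0.13 over ventral ORs, beside 0 over all ORs. With size factors over all genes the median of all ORs was 0.39, dorsal ORs had 0.53 and ventral ORs 0.28, and the counts of larger ACT and larger TMT responses were 64 and 4 for dorsal ORs and 29 and 9 for ventral ORs, so the direction for ventral ORs turned with the scaling. Without ACT litter 3 the ACT side held 13 dorsal and 3 ventral ORs of 23 and the TMT side 13 dorsal and 23 ventral of 51, and the dorsal median was 0.03. Without TMT litter 1 the dorsal median was -0.01. Without ACT litter 1, 35 of the 45 ORs called larger with ACT were dorsal and 4 ventral, and 8 of the 35 called larger with TMT were dorsal and 17 ventral. Of the 23 shared ORs, 12 were dorsal and 5 ventral.

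Class I ORs, the older branch of the family, most of which lie in a cluster on chromosome 7 and are expressed dorsally, were counted next. Of 125 class I ORs, ACT raised 0 and TMT 0, beside 3.12% and 9.56% of all ORs, and TMT lowered 2, Olfr605 and Olfr642, beside 0.643%. At p below 0.05, 2 had a larger ACT response and 1 a larger TMT response, beside 4.96% and 5.61% of all ORs. DESeq2 and the likelihood ratio test raised 0 of them as well. Their median was -0.33 for ACT and -0.40 for TMT, beside 0.03 and -0.02 over all ORs.

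In the genome, ORs of both sides were spread over many clusters, and a few clusters held several of a side. One is a cluster of 26 ORs on chromosome 16 (58759544 to 59363993). ACT raised 1 of the 26, Olfr209, and TMT raised 13, beside 3.12% and 9.56% of all ORs. A larger ACT response at p below 0.05 was found in 0 and a larger TMT response in 9, beside 4.96% and 5.61% of all ORs, and the larger TMT responses numbered 5 without ACT litter 3, 5 without TMT litter 3 and 4 with size factors over all genes. The median of the cluster was 0.45 for ACT and 1.38 for TMT, and its median difference was -0.78, or -0.37 with size factors over all genes. TMT raised 4 of the 26 without TMT litter 2 and 8 without TMT litter 3. Olfr177, Olfr173, Olfr186 and Olfr196 belong to it. In a cluster of 19 ORs on chromosome 7 (140159999 to 140705606), ACT raised 1, Olfr531, and TMT raised 9, beside 3.12% and 9.56% of all ORs. Its median difference was -0.30, and 0.11 with size factors over all genes. The number raised by TMT there was 5 without TMT litter 2, 5 without TMT litter 3 and 5 with size factors over all genes. A cluster of 95 ORs on chromosome 9 (37708964 to 40190134) had 11 larger ACT and 0 larger TMT responses at p below 0.05, beside 4.96% and 5.61% of all ORs. Its medians were 0.39 for ACT and -0.09 for TMT. The number of larger ACT responses was 3 without ACT litter 3, 19 without ACT litter 1 and 21 with size factors over all genes. It holds Olfr923, Olfr937, Olfr884 and Olfr145. In the cluster of 13 ORs on chromosome 4 that holds Olfr1328, 4 had the larger ACT response at p below 0.05, beside 4.96% of all ORs. The medians of these 13 ORs were 0.71 for ACT and -0.34 for TMT. The clusters were picked out for their counts after these were seen.

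Lists of ACT ORs from other experiments were then followed in the undiluted litters. Of the 86 ORs that an earlier pS6 study lists for ACT, ACT raised 19 and TMT 27 here, beside 3.12% and 9.56% of all ORs, with medians of 1.20 and 0.30. In the difference, 19 had the larger ACT response and 3 the larger TMT response at p below 0.05, beside 4.96% and 5.61% of all ORs, with a median difference of 0.41. Their median litter ratio was 0.50, 0.62 and 2.21 in ACT litters 1, 2 and 3, against 0.27, 0.34 and 0.23 in the TMT litters. Of 106 ORs that ACT activated in heterologous cells, ACT raised 14 and lowered 1, and TMT raised 29 and lowered 2. Of all ORs, ACT lowered 0.0919% and TMT 0.643%. In the difference, 17 of the 106 had the larger ACT response against 7 the larger TMT response, with a median difference of 0.17. Of 410 tested and not activated, 15 and 26 did, with a median of -0.07. These lists were recounted from a table of reporter values at the threshold of the study, and their sizes are not the study's own counts. Without ACT litter 3, the counts of larger ACT and larger TMT responses were 5 and 10 of the 86, and 4 and 11 of the 106, so the larger count turned to TMT in both lists, while their median differences were 0.04 and 0.02. Without ACT litter 1 they were 36 and 6 of the 86 and 30 and 9 of the 106, without TMT litter 1 they were 12 and 5 of the 86 and 11 and 10 of the 106, and with size factors over all genes 31 and 1 of the 86 and 30 and 0 of the 106.

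**Figure D4:**
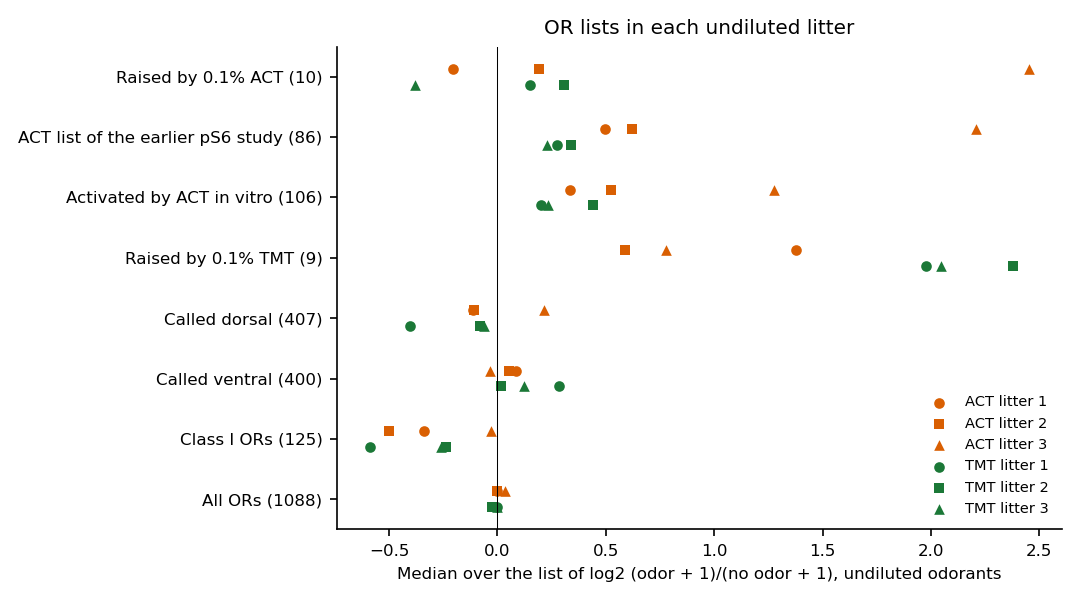
Median over each list of the litter ratio, log2 of (odor + 1) over (no odor + 1), in each undiluted ACT litter (orange) and TMT litter (green). The first 3 lists come from ACT and are highest in ACT litter 3, at 2.45, 2.21 and 1.28, the ORs raised by 0.1% TMT are highest in the TMT litters, with ACT litter 1 above the other ACT litters at 1.38, and all ORs lie near 0.

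The same difference was measured in other mice, exposed to 0.1% ACT or 0.1% TMT, with their own no odor mice (12 libraries). Titles of these libraries carry the letter E in the ACT experiment and G in the TMT experiment. Letter and odorant thus cannot be told apart at 0.1%, and what the letters stand for is not stated. One of the 0.1% TMT libraries carries a label that also names the 1% table, and its stimulant label of 0.1% was followed. By themselves, 0.1% ACT raised 10 ORs (0.919%) and 0.1% TMT raised 9 (0.827%). In the difference, 7 ORs were larger with ACT (0.643%) and 7 larger with TMT (0.643%). Leaving out litters gave 3 to 10 and 6 to 8 calls, with 3 on the ACT side without ACT litter 1 and 4 without TMT litter 3. Olfr923 had 1772, 2290 and 717 normalized counts with 0.1% ACT, against 78.0, 109 and 151 with no odor, and 92.4, 116 and 112 counts with 0.1% TMT, against 75.2, 88.4 and 94.2 with no odor. Its difference of 3.41 ± 0.49 (adjusted p = 1.04e-06) at 0.1% stood beside 1.80 ± 0.57 undiluted. Olfr1395 had 326, 313 and 252 counts with 0.1% ACT, against 395, 512 and 337 with no odor, and 2402, 2055 and 2156 with 0.1% TMT, against 314, 227 and 439 with no odor. Its difference was -3.27 ± 0.34 (adjusted p = 5.65e-08), beside -2.27 undiluted.

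The ORs larger with ACT at 0.1% were Olfr923, Olfr983, Olfr889, Olfr145, Olfr913, Olfr1377 and Olfr901, and those larger with TMT were Olfr1395, Olfr1297, Olfr165, Olfr186, Olfr164, Olfr196 and Olfr1352. All 7 of the TMT side kept a difference below 0 undiluted, from -2.27 in Olfr1395 to -0.61 in Olfr1352, and 6 of them had p below 0.05 there. On the ACT side the undiluted difference ran from -0.02 in Olfr983 to 1.80 in Olfr923, and 2 of 7, Olfr923 and Olfr145, had p below 0.05. Whether the difference itself changed between 0.1% and undiluted was not tested.

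Most of the ORs named on either side undiluted did not pass at 0.1%, where 0.643% of all ORs passed in each direction. Of the 10 on the ACT side, Olfr923 passed at 0.1%, and the other 9 lay between -0.83 and 0.28. Olfr397 had 82.0, 175 and 236 normalized counts with 0.1% ACT, against 124, 184 and 193 with no odor. Of the 10 on the TMT side, Olfr1395 and Olfr1297 passed, and 3 of the 10 had a value above 0. Of all 54 ORs with the larger undiluted ACT response at p below 0.05, 31 had a difference above 0 at 0.1%, with a median of 0.05. Of the 61 with the larger TMT response 27 did, with a median of -0.06. Among all 1088 ORs 542 did, with a median of -0.0037. At 0.1%, 2 of the 54 were called larger with ACT and 0 larger with TMT. Of the 61, 6 were called larger with TMT and 0 larger with ACT, beside 7 and 7 of all 1088 ORs.

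**Figure D5:**
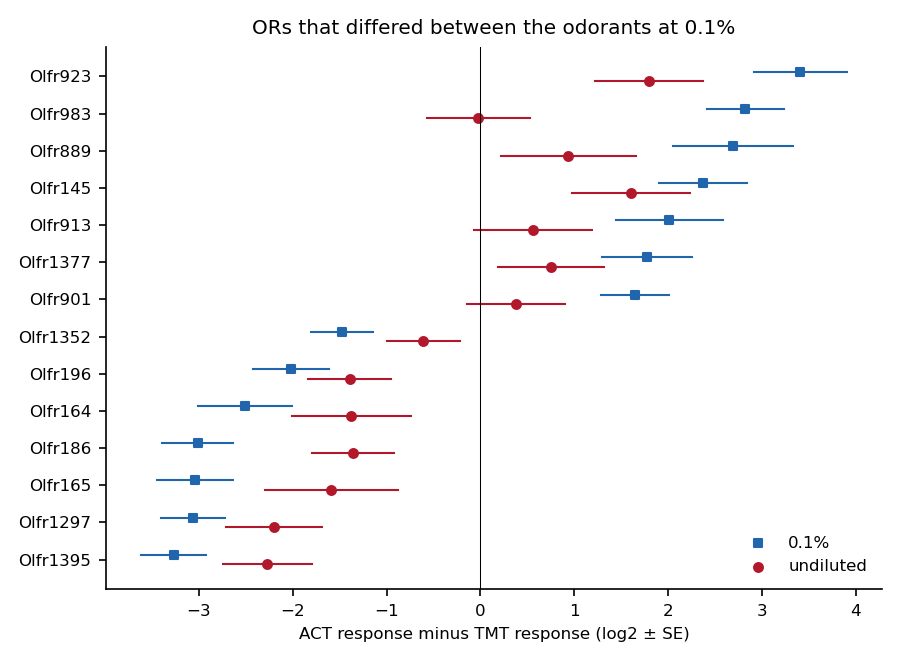
ACT response minus TMT response (log2 ± SE) for the 14 ORs that differed between the odorants at 0.1%, at 0.1% (blue squares) and undiluted (red circles). Every OR lies nearer to 0 undiluted, with Olfr983 at -0.02, and all 7 ORs larger with TMT stay below 0.

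Levels without odor were compared between the experiments. Between the no odor mice of the ACT experiment and those of the TMT experiment, 3 ORs were higher (0.276%) and 0 lower by edgeR's quasi-likelihood test, with 58 ORs (5.33%) at an unadjusted p below 0.05. With a filter on low counts 0 ORs were called. The 3 were Olfr288, Olfr578 and Olfr676. Olfr288, higher by 2.84 log2 in the no odor mice of the ACT experiment, also had a large difference toward TMT by the likelihood ratio test (-4.77, adjusted p = 0.0119), and 29.7% of its 50-base stretches occur in related ORs. The part of the level before odor in this value was not tested.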

How the data were processed

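The authors mapped reads with STAR and estimated counts with RSEM on GRCm38, using an OR annotation that includes untranslated regions, and the deposited expected counts are rounded to whole numbers. The deposited mean signal per group (baseMean, counts divided by size factors and averaged by the authors) served only to recover size factors over all genes. The authors' own fold changes, log2 CPM, p-values and FDR in the same tables were not used. The deposited counts were tested with edgeR 4.0.16 (glmQLFit, glmQLFTest) in R 4.3.3, 12 libraries in 1 fit, with TMM, no filter and the litter as a block. DESeq2 1.42.0 was an alternative. SEs come from the fit's posterior quasi-dispersion, with 95% intervals. No odor libraries were tied to their experiment through the study's code, since the labels name no table for them.

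Per the study's methods, a replicate number marks littermates. Deviations of same-numbered libraries correlated at 0.06, 0.01 and 0.10 in the ACT litters and 0.08, -0.03 and 0.17 in the TMT litters (823 ORs, mean count 10 or more). Odor and no odor libraries of different numbers had -0.08 to 0.03 in the ACT experiment and -0.15 to 0.11 in the TMT experiment. The values of littermates and of other pairs thus overlapped. In the undiluted fit, p-values rest on a spread estimated from the litters of both experiments, 3 per odorant. Those for ACT thus do not rest on the 3 ACT litters alone.

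Members and lists were chosen with earlier results of these data known. Named ORs are, on each side, the 10 largest differences past the threshold with a mean of at least 20 counts and litters apart, filled by the smallest p where too few pass (here all), the 10 shared ORs with the largest smaller response, those the study names, and known receptors. Stretches of 50 bases shared with related ORs were counted, since reads from them are less certain. Positions are from GENCODE M21 (1082 ORs placed), and ORs less than 1 Mb apart form a cluster. Simulated data tested the fit, with 8 of 89 calls false. Alternatives were other scalings, tests, filters, no block, litters left out, odor libraries alone and, added after seeing the data, each experiment alone. No sequences are printed.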

Additional observations from a re-analysis of the deposited data

Results flagged for a closer look

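At 0.1%, in mice that the undiluted comparison does not use, the response to ACT minus that to TMT passed edgeR's quasi-likelihood test for 7 of the ORs named above, which is why they are listed here. The difference was 3.41 log2 in Olfr923, 2.82 in Olfr983, 2.37 in Olfr145 and 1.65 in Olfr901, and -3.27 in Olfr1395, -3.06 in Olfr1297 and -3.04 in Olfr165. Undiluted, none of the 7 passed.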

How the results depend on the processing

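The count of ORs larger with ACT, 0 in the undiluted difference, was 1 without TMM, 1 with size factors over all genes, 6 by the likelihood ratio test, 3 by DESeq2 and 0 to 45 with a litter left out. Larger with TMT, it was 9 by the likelihood ratio test, 3 by DESeq2 and 0 to 35 with a litter left out. ACT raised 34 ORs, and 66 by the likelihood ratio test, 58 with no replicate block, 0 with each experiment fitted alone and 18 to 87 with a litter left out. ACT lowered 1, and 10 without TMM, 10 by the likelihood ratio test, 6 by DESeq2, 3 with no replicate block, 0 with each experiment alone and 0 to 8 with a litter left out. TMT raised 104, and 60 with size factors over all genes and 46 (without TMT litter 2) to 124 with a litter left out. TMT lowered 7, and 41 without TMM, 36 with size factors over all genes, 19 by the likelihood ratio test, 4 with no replicate block, 33 alone and 0 to 23 with a litter left out. Both raised 23, and 35 by the likelihood ratio test, 0 with each experiment alone and 13 to 34 with a litter left out. At 0.1%, ORs larger with ACT numbered 7, and 4 with no replicate block and 3 to 10 with a litter left out, and those larger with TMT 7, and 11 by the likelihood ratio test. The 3 calls between no odor groups were 0 after filtering. Calls of the zones stayed within 1.5 times. The causes were not tested. The 20 named differences and the 20 responses of the 10 named shared ORs kept their direction under every alternative run for them. These ORs were chosen by the same values, and the alternatives reuse the same libraries. The kept direction is thus largely fixed by the choice and is no independent support.

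Size factors over all genes moved the median of all ORs to -0.38 for TMT and 0.39 for the difference, and total counts to -0.32 and 0.09, so counts in each direction depend on the scaling. The number of ORs raised by ACT moved by over 1.5 times without ACT litter 1, ACT litter 3, TMT litter 1 or TMT litter 2. Low counts limit ORs under the mean of 20. None of the 20 named differences was called with or without the block.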

Other observations

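Few ORs were lower with an odorant. ACT lowered Olfr740, at -1.44 ± 0.36 log2 (adjusted p = 0.0193), which had -0.28 with TMT. TMT lowered Olfr101, Olfr1258, Olfr1283, Olfr52, Olfr605, Olfr642 and Olfr992, with log2 fold changes of -1.59 to -1.04, of which Olfr605 and Olfr642 are class I ORs. Olfr1258 and Olfr642 also had -1.12 and -1.09 with ACT, which did not pass. Olfr740, Olfr101 and Olfr992 are among the 106 ORs that ACT activated in heterologous cells. Without TMM, TMT lowered 41 ORs, so the number depends on the scaling. Some ORs outside the naming rule, picked out after their values were seen, passed in the difference without ACT litter 1. The ACT response minus the TMT response without that litter was -2.73 ± 0.49 log2 in Olfr96, -2.30 ± 0.50 in Olfr539 and 3.31 ± 0.71 in Olfr736 (adjusted p = 1.26e-05, 3.4e-04 and 2.53e-04), and all 3 are ventral ORs.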
